A study of Mus musculus with 6 samples.

Results

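Heat shock proteins, their DnaJ co-chaperones and a small set of regulators were compared between the hearts of mice fed a normal diet (ND) and a high fat diet (HFD). Members were taken by gene name. They are the array genes whose names begin with Hsp (followed by a digit or by a, b, d, e or h), the DnaJ families a, b and c, the Bag genes, *Hsf1*, *Hsf2*, *Cryab* and *Ahsa1*. This gave 82 genes of the 36163 names on the array. By where their proteins are known to work, 55 are cytosolic or nuclear, 14 belong to the endoplasmic reticulum (ER), 10 are mitochondrial, and 3 were placed in none of these. The hearts came from male C57BL/6 mice. ND mice received standard chow and HFD mice a diet with 60% of its calories as fat, both for 4 months from the age of 4 weeks. Each diet had 3 hearts, and each heart was hybridised to 1 single-colour Agilent array. No genotype beyond the strain is given for the mice of these arrays, and the 2 diets are the only groups here.

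Chaperones keep other proteins folded. HSP70 proteins bind unfolded stretches in a cycle driven by ATP, J proteins (the DnaJ families) bring them clients and start ATP hydrolysis, and nucleotide exchange factors such as the HSP110 and BAG proteins release the client. HSP90 finishes selected clients, small heat shock proteins hold unfolding ones in a soluble state, and the factor HSF1 switches on the inducible cytosolic genes when unfolded protein accumulates. The ER and the mitochondria carry HSP70 systems of their own, and heart muscle is known for large amounts of small heat shock proteins.

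The inducible cytosolic genes carry heat shock elements, inverted repeats of the letters GAA and TTC spaced by 2 bases. A core of 2 such units, GAANNTTC or TTCNNGAA, was searched on both strands in the RefSeq promoter windows of mouse build GRCm38.p6, each running from 250 bases before to 50 bases after a transcript start. These 2 cores read the same on either strand, and they overlap where 3 units stand in a row. A window was found for 65 of the 82 members. The core stood in 16 of the 65 (24.6%), beside 4587 of 27025 genes with a window (17.0%). Among 11 core cytosolic members with a window it stood in 7, those being *Hspa1a*, *Hsph1*, *Dnaja1*, *Hspb1*, *Hspb6*, *Hspb8* and *Bag3*. It stood in 1 of 12 ER members, *Dnajc10*, and in 2 of 7 mitochondrial members. A run of at least 3 units stood in 4 members, *Hsph1*, *Dnajb6*, *Hspd1* and *Hspe1*, beside 0.66% of all genes with a window. That of *Hsph1* began 37 bases after the start. These matches are letters in a window, and binding was not measured.

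The promoters of the members on which the comparison of the diets turns are shown here as the 250 bases before the start, 5′ to 3′ on the strand of the gene. Capitals mark every 2-unit core. *Hspa1a* (chr17:34972157-34972406, minus strand) and its near copy *Hspa1b* (chr17:34959239-34959488, minus strand) are shown because 1 probe stands for both, and their stretches were identical at 247 of 250 positions. *Dnajb1* (chr8:83607925-83608174, plus strand) is shown because it had the largest difference at an unadjusted p below 0.05, and its stretch held no core. *Hsph1* (chr5:149636337-149636586, minus strand) is shown because it followed a single HFD heart. For *Hspe1* (chr1:55088054-55088082, plus strand) 29 bases around its run of 4 units, in which the cores overlap, are shown. The run also lies in a window of *Hspd1*, its neighbour on the other strand.
Hspa1a: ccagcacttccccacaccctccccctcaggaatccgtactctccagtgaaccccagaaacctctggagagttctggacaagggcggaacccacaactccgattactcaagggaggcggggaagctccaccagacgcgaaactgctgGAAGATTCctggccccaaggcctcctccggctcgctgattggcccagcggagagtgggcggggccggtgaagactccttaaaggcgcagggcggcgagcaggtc
Hspa1b: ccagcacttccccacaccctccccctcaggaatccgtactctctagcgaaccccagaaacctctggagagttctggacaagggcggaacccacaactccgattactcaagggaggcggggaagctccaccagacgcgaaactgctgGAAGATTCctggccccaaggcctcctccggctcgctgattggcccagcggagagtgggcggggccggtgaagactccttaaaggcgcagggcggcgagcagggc
Dnajb1: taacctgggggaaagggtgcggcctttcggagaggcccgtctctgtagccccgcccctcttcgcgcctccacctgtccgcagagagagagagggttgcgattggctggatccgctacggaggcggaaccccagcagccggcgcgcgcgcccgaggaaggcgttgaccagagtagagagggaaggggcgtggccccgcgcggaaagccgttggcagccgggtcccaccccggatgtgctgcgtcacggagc
Hsph1: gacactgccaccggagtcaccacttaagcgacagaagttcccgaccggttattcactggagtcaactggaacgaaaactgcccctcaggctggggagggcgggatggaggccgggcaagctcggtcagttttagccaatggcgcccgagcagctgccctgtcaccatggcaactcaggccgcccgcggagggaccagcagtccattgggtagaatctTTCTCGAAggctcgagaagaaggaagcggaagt
Hspe1: gtccgTTCTAGAACCTTCCGGAAggcccc

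The 82 genes had 116 probes, and 76 genes had a probe that was well above background in every heart of at least 1 diet and entered the test. The 6 genes that did not were *Dnajb13*, *Dnajb7*, *Dnajc22*, *Dnajc5g*, *Dnajc6* and *Hspbap1*, and none of them was above background in any heart. Where a gene had several tested probes, the brightest stands for it. Levels are given as log2 of the background-subtracted intensity relative to the 75th percentile of the same array, which lay between 453 and 544 intensity units, so a level of 0 is that percentile. A level can be compared between hearts for 1 probe, but not between probes. Between 49.2% and 52.9% of the probes of each array were well above background.

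The hearts were first checked by markers and by their place on the slide. All 8 cardiomyocyte markers were above background in every heart, with a mean level of 7.94 to 8.16. HFD 2 and HFD 1 lay at the ends of some marker lists. In HFD 2 the 5 atrial muscle markers, 4 of them tested, had a mean level of −0.40, against 2.39 to 5.77 in the other hearts. Its summed fibroblast marker intensity was the lowest, at 287 times the array percentile against 312 to 375. HFD 1 had the highest atrial mean, at 5.77, beside 2.39 to 4.69 in the ND hearts and 4.17 in HFD 3. It also had the highest summed intensity of the 5 adipocyte markers, 3 of them tested, at 2.72 against 0.16 to 1.31 in the other hearts. HFD 1 and HFD 2 lay in 1 row of the slide and the other 4 hearts in the other row, so a fit with the row as a term compares HFD 3 with the 3 ND hearts. The 8 immediate early genes, which rise after handling and other acute stimuli, were above background in every heart and summed to 30.3 to 44.0 times the percentile in ND and 60.8 to 115 in HFD. The 5 erythroid markers summed to 577 to 737 in ND and 367 to 514 in HFD. The part of any of these in the results that follow was not tested. In RNA from whole hearts, fewer cells of a type and less RNA per cell cannot be told apart.

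Few members differed between the diets, and none passed the adjustment for multiple tests. At an unadjusted limma p below 0.05, 5 of the 76 tested genes differed (6.58%), where 11.9% of the 27590 tested probes did. *Dnajb1* and *Dnajc5b* were higher in HFD, a direction taken by 5.24% of all probes at this threshold, and *Hspb7*, *Dnajc12* and *Dnaja3* were lower, a direction taken by 6.63%. After Benjamini-Hochberg adjustment over all tested probes, 0 of the 76 genes passed in limma, and 0.0145% of all probes did (4 probes). The methods' t-test found 5 members at an unadjusted p below 0.05, of which 3 were the same genes, and 0 after adjustment. The 3 HFD hearts did not overlap with the 3 ND hearts for 13 of the 76 genes (17.1%), against 19.0% of all tested probes. They lay above all ND hearts for *Dnajb1* and *Dnajc3* (7.92% of all probes lay so) and below them for 11 genes (11.1% of all probes), which were *Hspb7*, *Hspb6*, *Hspbp1*, *Dnajc12*, *Dnajc24*, *Hsf1*, *Dnajc18*, *Dnajc25*, *Hspa9*, *Dnajc19* and *Dnajc30*. The members' shares were thus near or under those of the array as a whole.

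**Figure D1:**
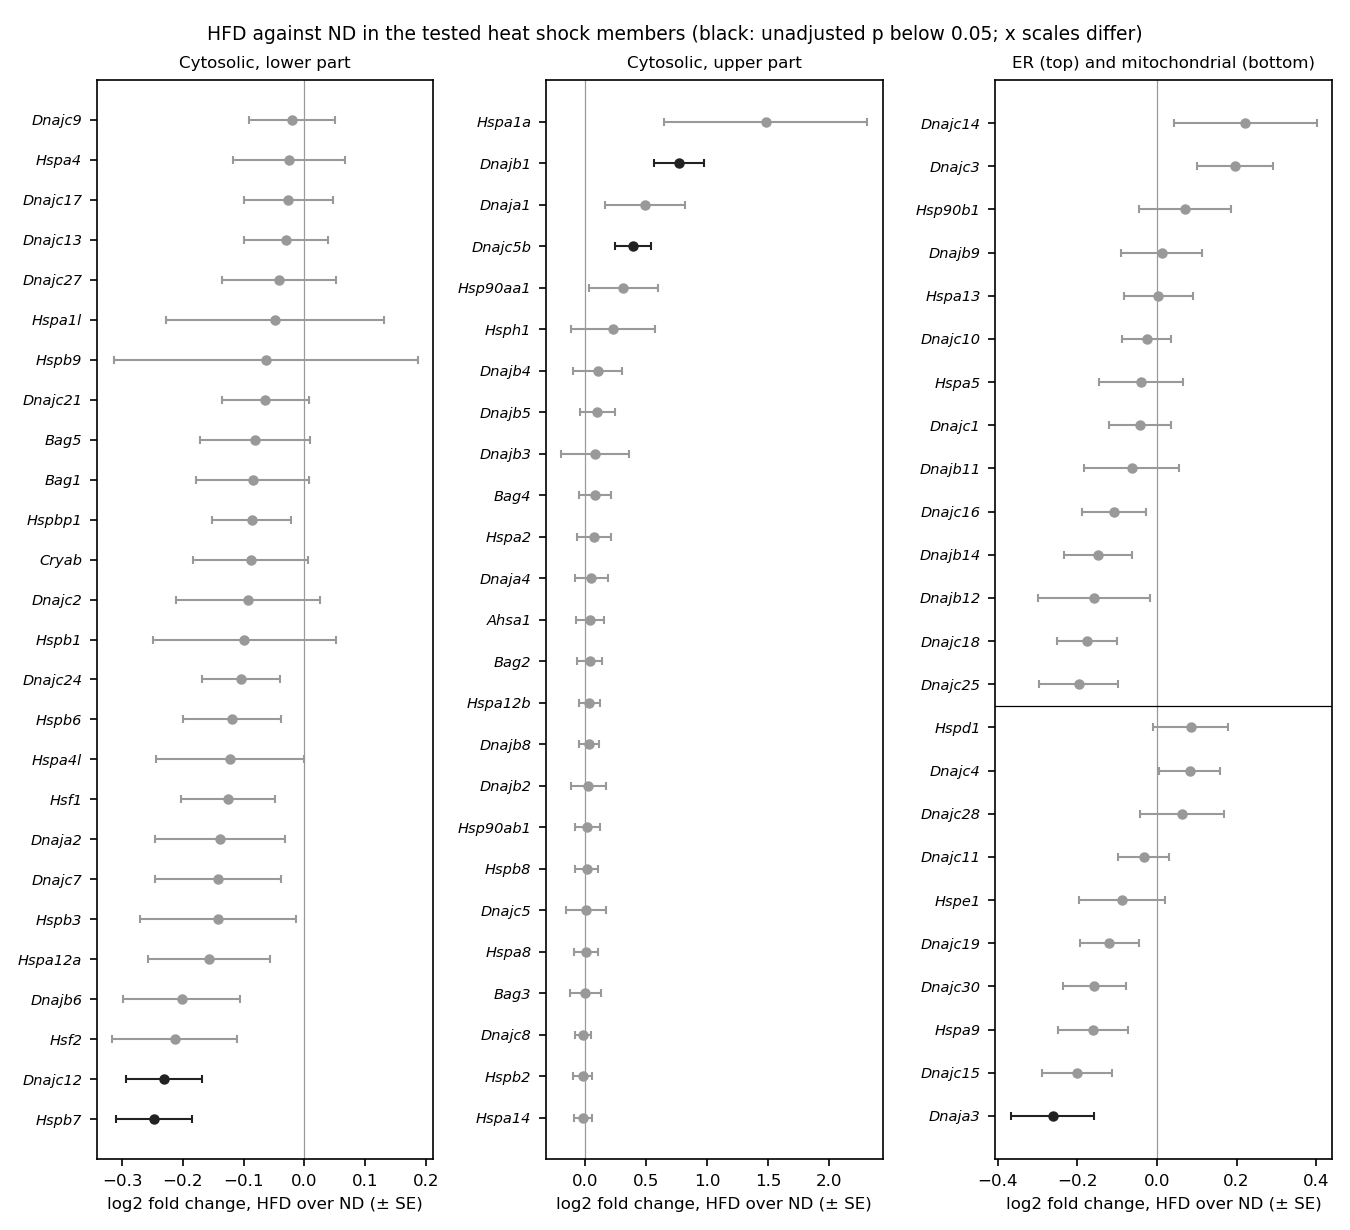
Log2 fold change of HFD over ND for the tested members of the 3 compartments, with the SE of limma as bars (x axis, log2 units, scales differ between panels) and the genes on the y axis, split into cytosolic members (left and middle) and ER and mitochondrial members (right). The 5 genes at an unadjusted p below 0.05 are black, and the widest bars are those of *Hspa1a*, with a log2 fold change of 1.48 and an SE of 0.83.

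*Hspa1a* encodes the stress-inducible cytosolic HSP70 and had the largest difference of all members, but also the largest spread. Its probe (NM_010479, mm9 chr17:35107117-35107176, minus strand) lists the *Hspa1b* transcript as well, so the pair cannot be told apart. ND 1, ND 2 and ND 3 were at 0.82, −0.59 and −1.48. HFD 1, HFD 2 and HFD 3 were at 0.89, 2.47 and −0.18. HFD 2 was the highest and ND 3 the lowest, while ND 1 lay beside HFD 1 and above HFD 3, so the diets overlapped. The log2 fold change was 1.48 (SE 0.83, 95% interval −0.56 to 3.51, limma adjusted p = 0.554). The range within the HFD hearts, 2.65, and that within the ND hearts, 2.30, were both wider than the difference between the diets. Without HFD 2 the log2 fold change was 0.78, without HFD 3 it was 2.10, without ND 1 it was 2.10 and without ND 3 it was 0.95. With the slide row as a term it was 0.24. The setting without ND 1 was the 1 of 17 in which its unadjusted p was below 0.05 (limma unadjusted p = 0.0484, adjusted p = 0.634).

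*Dnajb1* encodes HSP40, the main J protein partner of inducible HSP70. Its probe (NM_018808, mm9 chr8:86135660-86135719) read 4.42, 4.24 and 4.04 in ND 1 to ND 3 and 5.07, 5.34 and 4.60 in HFD 1 to HFD 3. The diets did not overlap, and HFD 3 was the nearest to the ND hearts. The SD of the 3 hearts was 0.37 in HFD and 0.19 in ND, and the log2 fold change was 0.77 (SE 0.21, limma unadjusted p = 0.00954, adjusted p = 0.274), or 1.70-fold. The two-sided exact permutation test over the 6 hearts gave p = 0.1, the smallest it can give with 3 against 3. *Dnajb1* kept an unadjusted p below 0.05 whichever heart was left out (log2 fold changes of 0.60 to 0.97). With the slide row as a term it was 0.37 (limma unadjusted p = 0.115, adjusted p = 0.754).

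*Dnaja1*, another cytosolic J protein, had levels of 5.37, 5.08 and 4.79 in ND and 5.56, 6.19 and 4.95 in HFD. Both HFD 1 and HFD 2 were above every ND heart and HFD 3 was below ND 1 and ND 2. The log2 fold change was 0.49 (SE 0.33, limma adjusted p = 0.622), with the other probe of the gene at 0.47, and it was −0.13 with the slide row as a term. It was 0.18 without HFD 2 and 0.80 without HFD 3.

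*Hsp90aa1*, the inducible cytosolic HSP90, and *Hsph1*, the HSP110 that serves as exchange factor for HSP70, showed a single high heart. *Hsp90aa1* read 5.08, 4.82 and 4.60 in ND and 4.89, 5.76 and 4.77 in HFD. *Hsph1* read 4.29, 4.15 and 3.92 in ND and 4.25, 5.09 and 3.70 in HFD. In both genes HFD 2 was the highest heart, and HFD 1 and HFD 3 were below ND 1. The log2 fold changes were 0.31 (SE 0.28, 95% interval −0.38 to 1.0) for *Hsp90aa1* and 0.23 (SE 0.35, 95% interval −0.62 to 1.07) for *Hsph1*. Without HFD 2 they were 0.0029 and −0.14, and with the slide row as a term −0.06 and −0.42. Both probes of *Hsph1* showed the same heart on top.

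The constitutive cytosolic HSP70 and HSP90, and the co-chaperones *Ahsa1* and *Bag3*, had differences near 0. *Hspa8*, the constitutive HSP70, had a log2 fold change of 0.01 (SE 0.10, 95% interval −0.24 to 0.25), and *Hsp90ab1*, the constitutive HSP90, one of 0.02 (SE 0.10, 95% interval −0.23 to 0.27). *Ahsa1*, which activates the ATPase of HSP90, was at 0.04 (SE 0.11) and *Bag3*, an exchange factor of muscle that works with small heat shock proteins, at 0.00 (SE 0.13). Their hearts overlapped in all 4 genes. The dimmer probes of *Hspa8* were at 0.12 and 0.24, with HFD 2 the highest heart in each. The regulators of the response had log2 fold changes of −0.13 for *Hsf1* (SE 0.08, limma adjusted p = 0.588), with all HFD hearts below the ND hearts, and of −0.21 for *Hsf2* (SE 0.10, limma adjusted p = 0.486), with an overlap.

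**Figure D2:**
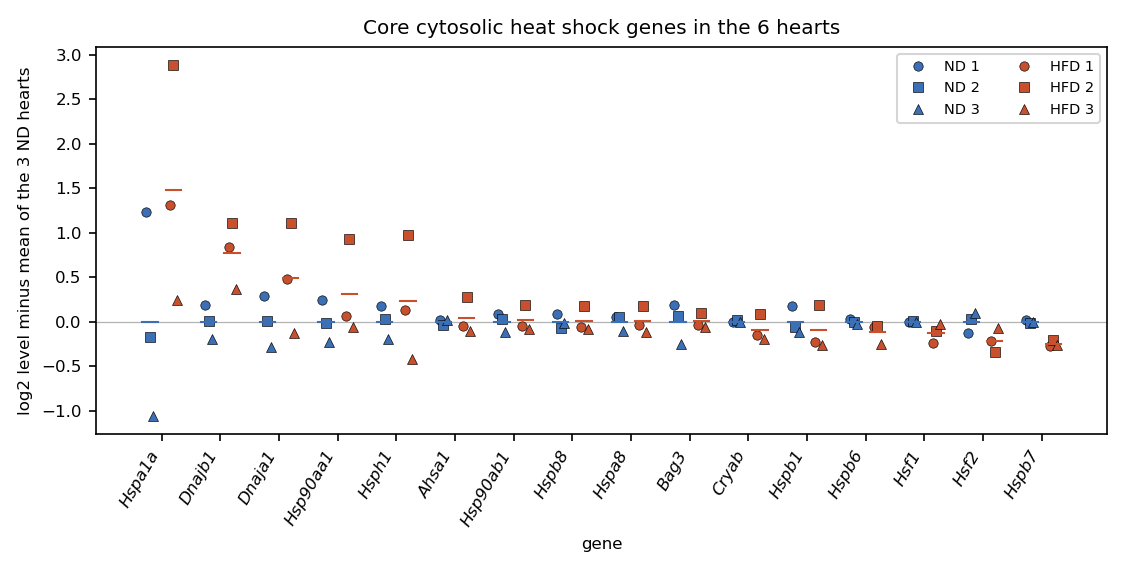
Log2 level of 16 core cytosolic members in each heart, minus the mean of the 3 ND hearts (y axis, log2 units), with the genes on the x axis ordered by their difference between the diets; points are hearts, short lines are the means of the 3 hearts of a diet. HFD 2 (red square) is the top point for 11 of the 16 genes, and *Dnajb1* and *Hspb7* are the genes whose diets are apart at an unadjusted p below 0.05.

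Among the small heat shock proteins, 7 of 8 tested genes had a log2 fold change below 0, with a median log2 fold change of −0.09, while 52.0% of all tested probes were lower. *Hspb7*, a small heat shock protein found mainly in heart and muscle, was the one with an unadjusted p below 0.05. Its probe (NM_013868, mm9 chr4:140980355-140980414) read 5.79, 5.76 and 5.77 in ND and 5.50, 5.57 and 5.51 in HFD. Each diet held within 0.08 and the hearts did not overlap. The log2 fold change was −0.25 (SE 0.06, 95% interval −0.40 to −0.09, limma unadjusted p = 0.00733, adjusted p = 0.262), so ND was 1.19-fold higher. It kept its direction and an unadjusted p below 0.05 in each of 17 other settings of the analysis, with log2 fold changes of −0.27 to −0.21 and adjusted p of 0.120 to 0.642.

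The other small heat shock proteins of heart muscle did not pass the unadjusted threshold. The ND hearts of *Hspb6* read 8.53, 8.49 and 8.47, and its HFD hearts 8.43, 8.45 and 8.25. The latter were all below the former, with a log2 fold change of −0.12 (SE 0.08, limma adjusted p = 0.623). *Cryab*, or αB-crystallin, was at −0.09 (SE 0.09), *Hspb1*, the mouse HSP27 homologue, at −0.10 (SE 0.15) and *Hspb8*, the partner of BAG3, at 0.01 (SE 0.10). In *Cryab* the ND hearts lay within 0.02 of each other while the HFD hearts were at 8.83, 9.08 and 8.79, so that HFD 2 was above all ND hearts and the other HFD hearts below them.

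Of the 22 tested cytosolic J proteins, 10 were higher and 12 lower in HFD, with a median of −0.02. *Dnajc12*, a co-chaperone of the aromatic amino acid hydroxylases, separated the diets with little spread. Its probe (NM_013888, mm9 chr10:62871211-62871270) read 2.60, 2.56 and 2.63 in ND and 2.34, 2.39 and 2.37 in HFD, without overlap. The log2 fold change was −0.23 (SE 0.06, limma unadjusted p = 0.00977, adjusted p = 0.277), and it lay between −0.25 and −0.21 over 17 other settings, with an unadjusted p above 0.05 only with the slide row as a term (0.0663). *Dnajb6*, a J protein of the Z-disc that limits aggregation, was at −0.20 (SE 0.10, limma adjusted p = 0.485), and its other 3 probes were at −0.18, −0.09 and −0.06.

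*Dnajc5b*, a relative of the cysteine string proteins, was near the lower end of the measured range. It read −3.37, −2.87 and −3.29 in ND and −2.81, −2.88 and −2.68 in HFD. ND 2 lay beside HFD 2, so the diets overlapped. The log2 fold change was 0.39 (SE 0.15, limma unadjusted p = 0.0383, adjusted p = 0.397). It was 0.14 with normexp background correction (limma unadjusted p = 0.123, adjusted p = 0.576). Its unadjusted p was below 0.05 in 6 of 17 other settings, and of the fits without 1 heart only in that without ND 2 (log2 fold change 0.54, with 0.29 to 0.43 in the others). The gene's other probe was not tested, being above background in 1 ND heart and in 0 HFD hearts.

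Taking the compartments in turn, the median log2 fold change was −0.02 over 51 cytosolic members, −0.04 over 14 ER members and −0.10 over 10 mitochondrial members, beside −0.0081 over all tested probes. Lower in HFD were 29 of 51 cytosolic, 9 of 14 ER and 7 of 10 mitochondrial members. The members of a compartment share the same 6 hearts and are not replicates, so these medians are descriptions with no test. Without HFD 2 they were −0.08, −0.11 and −0.14, and the median over all probes was −0.03. Without HFD 1 they were −0.0029, 0.0073 and −0.06, and the median over all probes was 0.0114. The sign of the ER median turned, as did that of the median over all probes.

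Of the 7 mitochondrial J proteins, 5 were lower in HFD and 2 higher, *Dnajc4* at 0.08 (SE 0.08) and *Dnajc28* at 0.06 (SE 0.11). *Dnaja3*, or Tid1, the J protein that serves mitochondrial HSP70 in the matrix, read 5.93, 5.86 and 5.65 in ND and 5.52, 5.68 and 5.46 in HFD. HFD 2 lay just above ND 3, and the other hearts of the diets were apart. Its log2 fold change was −0.26 (NM_023646, mm9 chr16:4707533-4707592, SE 0.11, limma unadjusted p = 0.0470, adjusted p = 0.414). Leaving out ND 1, ND 2, HFD 1 or HFD 3 put its unadjusted p above 0.05, with log2 fold changes of −0.34 to −0.20 whichever heart was left out.

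*Dnajc15*, a J protein of the inner membrane, was at −0.20 (SE 0.09, limma adjusted p = 0.455). *Dnajc19*, the J protein of the import motor, was at −0.12 (SE 0.07, limma adjusted p = 0.591), with its other probe at −0.21. *Dnajc30* was at −0.16 (SE 0.08, limma adjusted p = 0.501). In *Dnajc19* and *Dnajc30* all HFD hearts were below all ND hearts, as they were in *Hspa9*, the mitochondrial HSP70, which read 6.29, 6.28 and 6.29 in ND and 6.00, 6.27 and 6.10 in HFD. The log2 fold change of *Hspa9* was −0.16 (SE 0.09, limma adjusted p = 0.539). HFD 2 was next to the ND hearts, and without it the value was −0.23.

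*Hspd1* and *Hspe1* encode HSP60 and its lid HSP10, the mitochondrial chaperonin, and lie head to head on the chromosome. *Hspd1* was at 0.08 (SE 0.09, 95% interval −0.15 to 0.32) and *Hspe1* at −0.09 (SE 0.11, 95% interval −0.35 to 0.18), with overlapping hearts in both. All 3 probes of *Hspe1* were below 0, at −0.09, −0.11 and −0.06. The difference between the 2 genes was not tested.

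None of the 14 ER members had an unadjusted limma p below 0.05, and 0 passed the adjustment. Among 17 other settings, *Dnajc18* was below 0.05 without adjustment in 5 (the methods' t-test, quantile normalization, an intensity trend with robust variances, normexp, and the deposited table of log2 values) and *Dnajc3* in 3 (quantile normalization, the deposited table and without HFD 1). *Hspa5*, or BiP, the HSP70 of the ER, was at −0.04 (SE 0.11, 95% interval −0.30 to 0.22) and *Hsp90b1*, or GRP94, at 0.07 (SE 0.11, 95% interval −0.21 to 0.35). *Dnajc3*, an ER J protein induced in the unfolded protein response, read 2.13, 2.09 and 2.09 in ND and 2.17, 2.47 and 2.26 in HFD. Its HFD hearts were all above its ND hearts, with a log2 fold change of 0.20 (SE 0.10, limma adjusted p = 0.490). *Dnajb9* was at 0.01 (SE 0.10) and *Dnajb11* at −0.06 (SE 0.12), both with overlap. *Dnajc18* and *Dnajc25* were at −0.18 (SE 0.08) and −0.20 (SE 0.10), with all HFD hearts below the ND hearts.

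**Figure D3:**
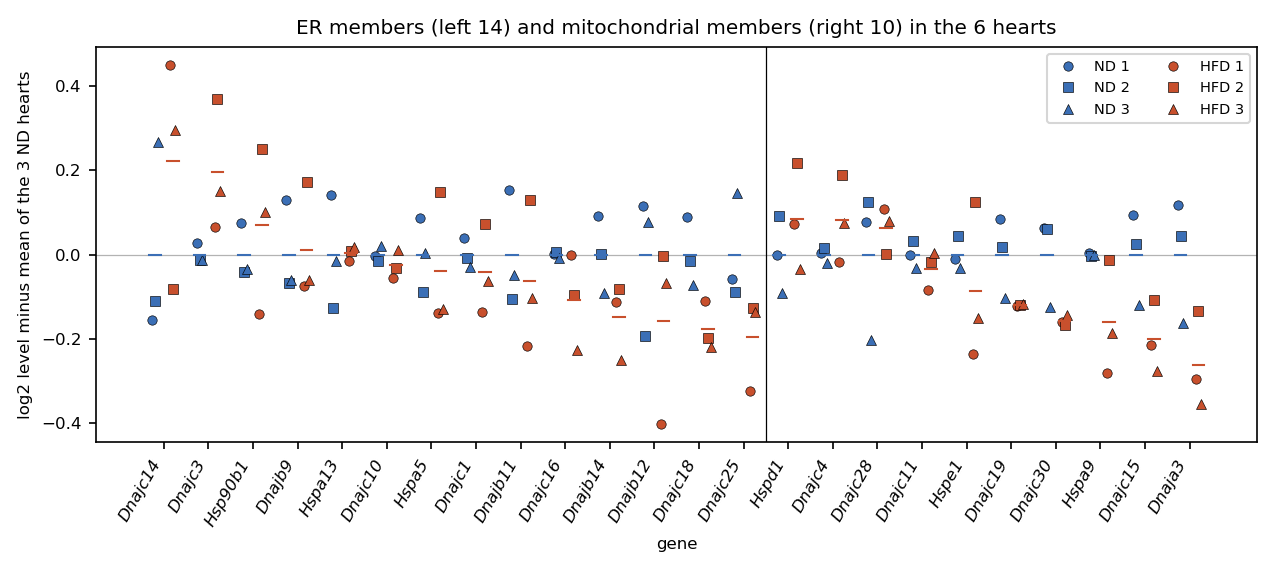
Log2 level of the 14 ER members (left of the line) and the 10 mitochondrial members (right) in each heart, minus the mean of the 3 ND hearts (y axis, log2 units), with genes on the x axis ordered within each compartment by their difference between the diets; points are hearts and short lines are diet means. *Dnaja3*, at the right end, has the lowest HFD mean, at −0.26, and *Dnajc3* is the ER gene whose HFD hearts are all above the ND hearts.

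Many members were highest in a single heart, HFD 2. It was the highest of the 6 hearts for 11 of the 16 core cytosolic genes (68.8%) and for 25 of all 51 cytosolic members (49.0%), while it was the highest for 27.3% of all tested probes measured in every heart. Among ER members it was the highest for 5 of 14 (35.7%), as was ND 1, and among mitochondrial members for 3 of 10 (30.0%), with ND 1 the highest for 5. Outside the named families the same heart was the highest for 8 of 8 TRiC subunits and 9 of 11 other cytosolic co-chaperones. It was also the highest for 11 of 16 other ER chaperones and genes of the unfolded protein response (68.8%). Of 9 other mitochondrial chaperones and proteases it was the highest for 3 (33.3%), with ND 1 the highest for 4 (44.4%). HFD 1 was the lowest heart for 31 of the 76 members (40.8%) and for 26.8% of all probes. In 14 of the 16 core cytosolic genes the range within the HFD hearts was wider than the difference between the diets. So it was in 62 of all 76 members, in 13 of 14 ER members and in 6 of 10 mitochondrial members. The share over all probes was not counted. Genes of a list share hearts and are often regulated together, so these counts carry no test.

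**Figure D4:**
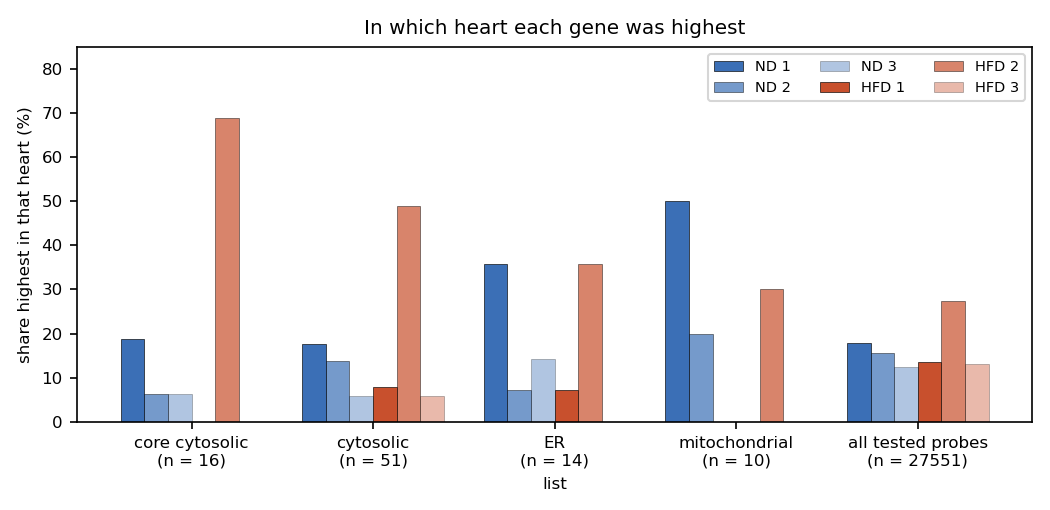
Share of genes (y axis, percent) for which each of the 6 hearts had the highest level, for 16 core cytosolic, 51 cytosolic, 14 ER and 10 mitochondrial members and for the 27551 tested probes measured in all hearts (x axis); bars are hearts, ND in blue and HFD in red. HFD 2 has the tallest bar for the core cytosolic genes, at 68.8%, and ND 1 for the mitochondrial genes, with 5 of 10.

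The count of members at the unadjusted threshold rose when HFD 2 was left out, to a share near that of all probes. Without HFD 2, 10 of the 76 genes (13.2%) had an unadjusted limma p below 0.05, beside 12.6% of all probes. Of the 10 genes, 9 were lower in HFD, and 0 passed the adjustment. They were *Dnajb1*, higher, and *Hspb7*, *Dnajc12*, *Dnaja3*, *Dnajc15*, *Hspa9*, *Hspe1*, *Cryab*, *Dnaja2* and *Dnajb6*, lower. Genes whose hearts did not overlap then numbered 33 of 76 (43.4%), beside 33.2% of all probes with 5 hearts. With the slide row as a term, 4 of 76 members (5.26%) were at an unadjusted p below 0.05, beside 7.74% of all probes, and only *Hspb7* was shared with the fit without it. The other members were *Hspb6* and *Hspa4l*, lower, and *Bag4*, higher.

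Genes of the same pathways outside the named families were set beside all tested probes, of which 11.9% had an unadjusted limma p below 0.05. Of all tested probes, 52% were lower in HFD and 19% did not overlap between the diets. Of 8 subunits of TRiC, the cytosolic chaperonin, and 11 other cytosolic co-chaperones, 0 had an unadjusted limma p below 0.05 and 0 passed the adjustment, with medians of 0.0035 and 0.02. Of 16 other ER chaperones and genes of the unfolded protein response, 13 were higher and 3 lower in HFD, with a median of 0.06. *Herpud1*, which acts in ER-associated degradation, was the one with an unadjusted p below 0.05, at −0.41 (SE 0.11, limma adjusted p = 0.267), and it was lower. Of 9 other mitochondrial chaperones and proteases, 7 were lower in HFD (77.8%). Of these 9, 2 had an unadjusted limma p below 0.05 (22.2%) and 3 did not overlap between the diets (33.3%). *Grpel1* and *Grpel2*, the exchange factors of mitochondrial HSP70, had unadjusted p values below 0.05. *Grpel1* was at −0.20 (SE 0.07, limma adjusted p = 0.386) and *Grpel2* at −0.30 (SE 0.11, limma adjusted p = 0.384), each with all HFD hearts below all ND hearts. *Hscb*, at −0.14 (SE 0.08, limma adjusted p = 0.556), also had all HFD hearts below all ND hearts.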

How the data were processed

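Hearts of 3 ND and 3 HFD mice were profiled on 1 array each. The authors deposited the scanner output of Agilent Feature Extraction 10.7.1.1, in which the processed intensity of each spot is background-subtracted and detrended within the array but not scaled between arrays, with probe positions on mm9. They also deposited a table of log2 values whose normalization is not given in the sources used here. It ranked the spots as the scanner files do and its columns had one median of 4.56. Its direction and common centre are thus known, and the method that gave them is not. It was used as an alternative.

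Processed intensities were set to log2 minus the 75th percentile of each array. Spots of one probe were averaged, and control and outlier spots were left out. Probes well above background in all hearts of at least 1 diet, and measured in at least 2 hearts of each, were tested with limma 3.58.1 in R 4.3.3 (lmFit and eBayes, two-sided), with Benjamini-Hochberg adjustment over all 27590 probes at 0.05. The number of arrays limits the precision. The labels give each array its own replicate number, but not whether animals shared a cage or litter. The limma p-values set the diet difference against the spread between these hearts, with the variance moderated over all tested probes. Replicate numbers did not pair hearts across diets (correlations of deviations −0.15, 0.15 and 0.19) and were not used as a block.

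Named genes were core members set by list, every member at an unadjusted p below 0.05, and the 5 largest increases and 5 largest decreases. The members, compartments and lists were chosen with earlier results of these data known. Compartments follow textbook knowledge. *Hspa1b* and *Bag6* had no probe under those names. Of the steps of the analysis, the limma fit and the t-test were tested on simulated data. Alternatives covered normalization, background correction, filters, test, replicate block, slide row and leaving out each heart.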

Additional observations from a re-analysis of the deposited data

How the results depend on the processing

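No member passed the adjustment in the limma fit or in any of 17 other settings. The count of members at an unadjusted p below 0.05, 5 of 76, was 8 with an intensity trend and robust variances (10.5%, beside 12.3% of all probes). It was 4 to 10 when 1 heart was left out, with 10 without HFD 2 (13.2%, beside 12.6% of all probes). With the replicate block it was 4, with 0 past the adjustment, and the block changed no other call than that of *Dnajc5b*. Members whose hearts did not overlap, 13, were 16 to 33 with 1 heart left out (25.5% to 33.2% of all probes). They were 20 without HFD 1 (26.3%, beside 31.4% of all probes), 22 without ND 3 (28.9%, beside 31.2%) and 33 without HFD 2 (43.4%, beside 33.2%). Leaving out 1 heart moved the cytosolic median between −0.08 and −0.0029, the ER median between −0.11 and 0.0073 and the mitochondrial median between −0.14 and −0.06. The median over all probes then lay between −0.0253 and 0.0114.

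Of 510 fold changes of 30 genes under 17 settings, 480 kept their direction. The other 30 belonged to 13 genes, whose log2 fold changes were 0.49 or smaller in size, and the cause was not tested. Under a fit that adds the slide row, the values were −0.11 for *Ahsa1*, −0.055 for *Bag3*, −0.13 for *Dnaja1*, −0.060 for *Dnajb9*, −0.058 for *Hsp90aa1*, −0.079 for *Hsp90ab1*, −0.12 for *Hspa8*, −0.083 for *Hspb8*, −0.035 for *Hspd1* and −0.42 for *Hsph1*. Normexp background correction gave −0.0060 for *Bag3*. With 1 heart left out, *Ahsa1* lay between −0.079 and 0.11, *Bag3* between −0.13 and 0.10, *Dnajb9* between −0.068 and 0.076, *Dnajb11* between −0.16 and 0.013, *Hsp90ab1* between −0.066 and 0.066, *Hsp90b1* between −0.020 and 0.18, *Hspa5* between −0.13 and 0.0098, *Hspa8* between −0.075 and 0.069, *Hspb8* between −0.070 and 0.059 and *Hsph1* between −0.14 and 0.55. With 3 hearts a diet, the 95% interval of *Hspa1a* ran from −0.56 to 3.51, beside SDs between hearts of 1.16 in ND and 1.33 in HFD.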

Other observations

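Probes of 1 gene did not always tell the same story. *Dnajc5*, the cysteine string protein of secretory vesicles, had 3 tested probes, all of transcript NM_016775. Its brightest was at a log2 fold change of 0.01 (SE 0.16, limma adjusted p = 0.989) with overlapping hearts. The next read 0.92, 0.89 and 0.85 in ND and 0.73, 0.74 and 0.61 in HFD, without overlap, at −0.19 (SE 0.07, limma unadjusted p = 0.0326). The third was at −0.02 (SE 0.10). These probes were named after their values were seen.

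*Dnajb9*, an ER J protein that binds BiP, had a bright probe at 0.01 and a dim one at 0.33 (SE 0.30). In the dim probe HFD 2 read −0.64, while the other 5 hearts lay between −1.81 and −1.42.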
